A study of Mus musculus with 45 samples.

Results

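Nucleolar ribosome biogenesis genes were followed in sorted small intestinal tuft cells of mice on a reference or a high fat diet. The rule names the genes and uses none of their values, although it was set with earlier results of these data known: Npm1, Ncl, Fbl, Nop56, Nop58, Dkc1, Nop10, Gar1, Nhp2 and Polr1a. All 10 were found among the 47729 genes of the tables, and 9 passed the filter on low counts (over 5 reads in 6 or more of the 45 libraries), which left 14020 genes to test. Gar1, with at most 14 reads in a library, did not pass it. Male C57BL/6J mice without a transgene, aged 5 weeks at arrival and housed at thermoneutrality, were fed the reference diet (RFD, 10% of energy from fat) or the high fat diet (HFD, 60% of energy from fat). The short-term set (STF, 9 weeks of feeding) had 11 libraries on RFD and 11 on HFD, and the long-term set (LTF, 22 weeks per the study) had 11 on RFD and 12 on HFD, each library from the EpCAM+CD45+ Siglec-F+ cells of 1 mouse. The labels state 9 weeks for each of the 45 libraries, so the 22 weeks rest on the study's description. Within a comparison of LTF with STF, the feeding time, the age of the mice and the set of libraries cannot be told apart.

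Ribosomes are built in the nucleolus. RNA polymerase I copies the ribosomal DNA into a long precursor RNA, small nucleolar ribonucleoproteins (snoRNPs) modify its bases and riboses, and processing factors cut, fold and pack it with ribosomal proteins into the small and large subunits. The members stand for these steps. Polr1a is the largest subunit of RNA polymerase I. Fbl is the methyltransferase of the box C/D snoRNPs, and Nop56 and Nop58 are the paralogous scaffold proteins beside it. Dkc1 is the pseudouridine synthase of the H/ACA snoRNPs, of which Nop10, Gar1 and Nhp2 are the other core proteins. Ncl (nucleolin) and Npm1 (nucleophosmin) are abundant nucleolar proteins that bind precursor RNA and act as chaperones in assembly. In the intestinal epithelium such genes are known to be high in dividing crypt cells, whereas tuft cells are rare, mostly post-mitotic chemosensory cells that release IL-25.

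The members lie on separate parts of the genome (GRCm38, GENCODE M21). Npm1 lies at chr11:33152287-33163206 and Nhp2 at chr11:51619735-51623714. Ncl spans chr1:86344719-86359400 and Nop58 chr1:59684971-59719044. Nop56 lies at chr2:130274430-130279313 and Nop10 at chr2:112261926-112263269. Fbl spans chr7:28169710-28179269, Dkc1 chrX:75095854-75109777, Gar1 chr3:129824912-129831396 and Polr1a chr6:71909053-71984935. Ncl, Nop56, Nop58 and Dkc1 also carry small nucleolar RNA genes on their own strand, 13 in all, of which 12 lie in introns of the protein-coding transcripts and 1 of Nop56 overlaps an exon. Examples of the box C/D type are shown because the RNAs they encode are the partners of the proteins that Fbl, Nop56 and Nop58 encode. The capitals mark TGATGA, the letters of box C, and the last CTGA, the letters of box D.
Snord82 in Ncl, chr1:86356261-86356330, minus strand: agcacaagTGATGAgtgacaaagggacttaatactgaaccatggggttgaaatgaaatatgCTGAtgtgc
Snord110 in Nop56, chr2:130275506-130275573, plus strand: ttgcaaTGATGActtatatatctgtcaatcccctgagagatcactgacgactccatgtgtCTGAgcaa
Snord11 in Nop58, chr1:59704790-59704873, plus strand: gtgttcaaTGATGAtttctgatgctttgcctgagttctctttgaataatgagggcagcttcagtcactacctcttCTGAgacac
None of the 13 snoRNA genes had a read in any of the 45 libraries. The values that follow are those of the host genes.

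Promoter sequence was taken from RefSeq (GRCm38.p6) for 8 of the 10 members, all but Npm1 and Fbl. Stretches of 120 bases that end upstream of the start annotated in RefSeq, and in GENCODE where that one lies earlier, are shown for 4 members that were higher on HFD in STF and for Polr1a, which was not. The capitals mark ATTGG or its reverse complement CCAAT, the CCAAT box, searched on both strands.
Ncl, chr1:86359456-86359575, minus strand: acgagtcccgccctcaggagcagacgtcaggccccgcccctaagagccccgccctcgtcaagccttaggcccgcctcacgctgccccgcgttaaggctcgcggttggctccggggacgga
Nop58, chr1:59684851-59684970, plus strand: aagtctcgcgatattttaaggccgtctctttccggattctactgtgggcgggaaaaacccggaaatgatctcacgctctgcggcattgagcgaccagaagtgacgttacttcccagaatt
Nop10, chr2:112261806-112261925, plus strand: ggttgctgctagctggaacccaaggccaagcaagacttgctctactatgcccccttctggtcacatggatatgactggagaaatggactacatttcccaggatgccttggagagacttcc
Nhp2, chr11:51619615-51619734, plus strand: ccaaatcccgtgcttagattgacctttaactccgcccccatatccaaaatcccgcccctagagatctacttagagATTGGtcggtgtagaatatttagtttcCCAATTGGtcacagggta
Polr1a, chr6:71908933-71909052, plus strand: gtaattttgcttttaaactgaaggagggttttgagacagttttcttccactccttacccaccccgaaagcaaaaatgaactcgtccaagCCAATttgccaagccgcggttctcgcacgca
Over the whole promoter windows, from 250 bases before the start to 50 after it, ATTGG or CCAAT was found in 5 of the 8 member promoters (Dkc1, Nhp2, Nop10, Nop56 and Polr1a) and in 37.4% of all 32851 promoters. CGGAAG or CTTCCG, the core of an ETS site, was found in 3 of the 8 (Gar1, Nhp2 and Nop10) and in 16.9% of all. CACGTG, the E-box that Myc family proteins bind, was in none of the 8 windows and in 7.15% of all.

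Depth and purity set limits on every value. A library held between 189340 and 4193097 reads on genes in STF and between 661598 and 4690213 in LTF, and 2 libraries, 1 on each diet in STF, had under 500000. Levels are given as CPM, the reads of a gene scaled to a common library size with the TMM factors of edgeR, and levels are compared between genes only as TPM, which also divides by transcript length. The study names the sorted cells as CD45+ but also describes using CD45 to leave out cells that express it. The tuft cell genes Dclk1 and Trpm5 had reads in all 45 libraries. So did Siglecf, which encodes the sort marker Siglec-F, and Ptprc, which encodes CD45. The summed level of the 28 tuft markers nevertheless ranged from 5699 to 37437 CPM on RFD and from 529.7 to 37232 CPM on HFD in STF, and from 6497 to 39287 CPM on RFD and from 1673 to 37947 CPM on HFD in LTF. HFD mouse 80 of STF had the lowest mean tuft level of all. Markers of other cells were present too, and the 7 Paneth cell genes took up to 36.05% of the reads of a library on HFD in STF, whereas the 9 intraepithelial T cell markers summed to at most 106 CPM in any library. In LTF, RFD mouse 3 had no read of Npm1, Fbl, Nop56, Dkc1, Nop10 and Nhp2, and 2 reads of Nop58. With 927740 reads in that library, a count of 0 allows up to 3.23 CPM before TMM scaling, a limit that covers counting error only. RFD mouse 1 of LTF had the highest level of its group for all 9 tested members. Results that rest on these mice are given with and without them.

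The members spanned more than an order of magnitude in median level within each group. In STF on RFD, the median TPM was 71.1 for Npm1, 45.9 for Nop58, 35.0 for Nhp2, 34.5 for Nop56, 25.7 for Nop10, 24.5 for Ncl, 19.0 for Dkc1, 6.78 for Fbl, 3.70 for Polr1a and 1.73 for Gar1. Each gene overlapped in range with the next in this order. Npm1 exceeded Nop58 in 9 of 11 mice, whereas Nop58 exceeded Nhp2 in 6 of 11. On HFD in STF, Npm1 (median 166 TPM) was above Nop56, the next in order, in 11 of 11 mice. In LTF on RFD, Nop10 (39.0 TPM) and Npm1 (30.5 TPM) led, and Nop10 was the higher in 5 of 11 mice. Fbl, Polr1a and Gar1 were the lowest 3 in every group. Within the H/ACA core, the messengers were thus far from equal, and Gar1 had no read in 22 of the 45 libraries, in which a count of 0 allows up to 0.640 to 7.33 CPM. Fbl is the least certain of the tested members, because 20.9% of its counts above 0 were not whole numbers, meaning that RSEM divided reads between it and similar sequences. The counts of the other 9 were all whole.

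**Figure D1:**
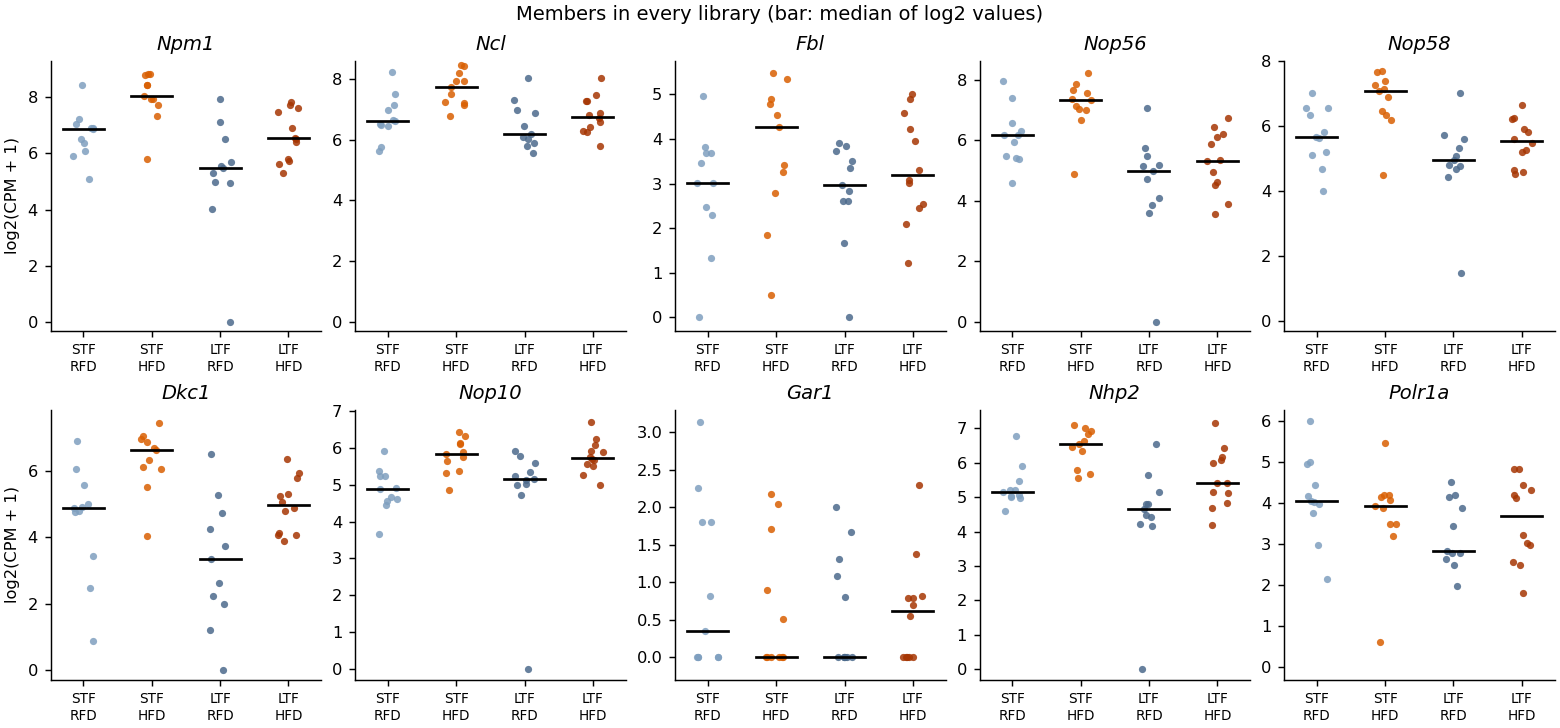
Level of each member in every library, as log2(CPM + 1), in the 4 groups. Each point is 1 mouse and the bar is the median. In STF the HFD medians of 8 members lie above the RFD medians, that of Polr1a does not, and Gar1 lies near 0 in all groups; the single LTF mouse at 0 in 6 panels other than Gar1 is RFD mouse 3.

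The diets were first compared after 9 weeks. The question was whether HFD changes the messengers of the nucleolar machinery in sorted tuft cells. In STF, 5 of the 9 tested members passed the threshold, an adjusted p below 0.1 in the quasi-likelihood test of edgeR with p-values adjusted after Benjamini and Hochberg over all genes, and all 5 were higher on HFD: Npm1, Ncl, Nop58, Nop10 and Nhp2. Among all genes tested, 3.32% were called and 2% were called higher. The median log2 fold change of the 9 was 0.99, beside -0.05 over all genes, and 7 of the 9 had an unadjusted p under 0.05, beside 18% of all genes. In bulk samples, fewer cells of a type and less RNA per cell cannot be told apart.

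Among the general nucleolar proteins, Npm1 had 33.1 CPM in the lowest, 117 in the median and 346 in the highest mouse on RFD, and 54.9, 258 and 454 CPM on HFD. The groups overlapped, but 10 of 11 mice on HFD were above the RFD median and 3 exceeded all of the RFD mice. The log2 fold change of Npm1 was 1.32 ± 0.33 (SE, edgeR adjusted p = 0.0572). Ncl had 48.2, 97.6 and 301 CPM on RFD (lowest, median and highest) and 108, 213 and 349 CPM on HFD. All 11 mice on HFD were above the RFD median of Ncl, and 7 of 11 mice on RFD were below every mouse on HFD. The log2 fold change was 0.93 ± 0.28 (SE, edgeR adjusted p = 0.0827).

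Of the box C/D core, Nop58 rose and its partners did not pass the test. Nop58 had 15.1, 49.99 and 129 CPM on RFD and 21.4, 133 and 205 CPM on HFD. Of the 11 mice on HFD, 6 exceeded all of the RFD mice, while 1 was below the RFD median. The log2 fold change was 1.13 ± 0.34 (SE, edgeR adjusted p = 0.0847). Nop56, the paralog, had 23.1, 70.7 and 246 CPM on RFD and 28.2, 160 and 293 CPM on HFD, with 10 of 11 mice on HFD above the RFD median. Its log2 fold change of 0.96 ± 0.35 (SE, edgeR adjusted p = 0.153) was of similar size to that of Nop58. Fbl, the enzyme, had 0, 7.12 and 30.3 CPM on RFD and 0.421, 18.2 and 43.5 CPM on HFD, with 8 of 11 mice on HFD above the RFD median. The 0 came from RFD mouse 40, whose 189340 reads allow up to 15.8 CPM before TMM scaling, more than the RFD median. The log2 fold change of Fbl was 0.99 with a wide error (SE 0.55, adjusted p = 0.348, edgeR), on 1 to 114 reads per library on HFD.

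Of the H/ACA core, Nhp2 and Nop10 rose. Nhp2 had 23.3, 34.2 and 108 CPM on RFD and 45.9, 92.8 and 134 CPM on HFD. It separated the diets best among the members, with 11 of 11 mice on HFD above the RFD median and 9 of 11 mice on RFD below every mouse on HFD. The log2 fold change was 1.11 ± 0.26 (SE, edgeR adjusted p = 0.0433). Nop10 had 11.7, 28.5 and 59.6 CPM on RFD and 28.2, 56.2 and 85.3 CPM on HFD. Of the mice on HFD, 10 of 11 were above the RFD median and 4 exceeded all of the RFD mice. Its log2 fold change was 0.91 ± 0.25 (SE, edgeR adjusted p = 0.0696). Dkc1, the pseudouridine synthase, had 0.814, 28.5 and 121 CPM on RFD and 15.7, 98.8 and 177 CPM on HFD. Of 11 mice on HFD, 10 were above the RFD median of Dkc1. The fitted difference was the largest of the 9 in size, a log2 fold change of 1.47, but the mice varied more (SE 0.50, adjusted p = 0.129, edgeR). Gar1 was not tested and had a median of 0.271 CPM on RFD and 0 on HFD.

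Polr1a was the exception in direction. It had 3.47, 15.6 and 62.2 CPM on RFD and 0.523, 14.2 and 43.0 CPM on HFD, and 5 of 11 mice on HFD were above the RFD median. The log2 fold change was -0.28 ± 0.44 (SE, edgeR adjusted p = 0.799), and with the cell cycle list in the model it was 0.016. An antisense gene and a pseudogene overlap Polr1a on the opposite strand, and the strandedness of the counting is not given in the sources used here. Shorter overlaps, of 45 bases with Mpp1 for Dkc1, 44 with Rmnd5b for Nhp2 and 5 with Idh3b for Nop56, also lie on the opposite strand.

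**Figure D2:**
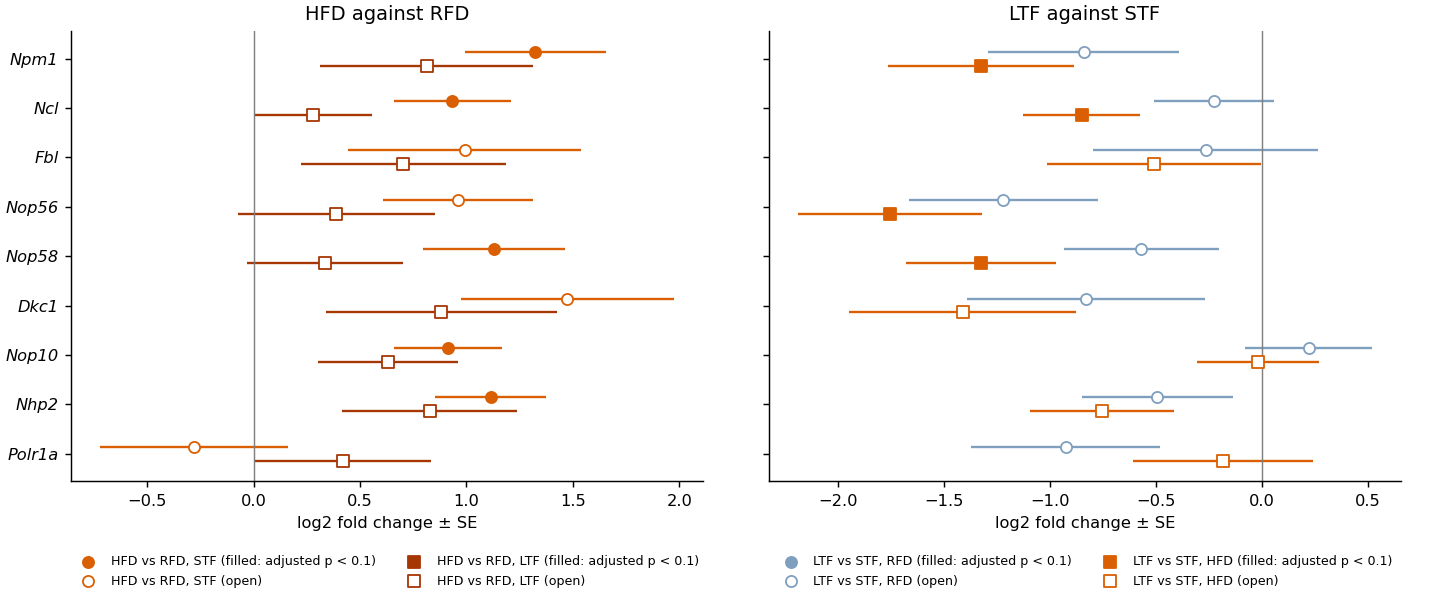
Fitted log2 fold change ± SE of the 9 tested members, for HFD against RFD in each set (left) and for LTF against STF on each diet (right). Filled symbols have an adjusted p under 0.1: 5 members in STF and 0 in LTF on the left, 4 on HFD and 0 on RFD on the right.

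The calls in STF stood close to the threshold and moved with single mice. Leaving out 1 library at a time gave 0 to 7 member calls, and the fold changes of the 8 members that were higher kept their sign in all 22 fits. Without HFD mouse 6 there were 0 calls. There was 1 call without RFD mouse 1, 21 or 23 or without HFD mouse 8, 70 or 80. There were 2 without RFD mouse 24 or 84 or HFD mouse 50 or 62, and 3 without RFD mouse 3 or 22. Without RFD mouse 20 or HFD mouse 64 there were 7 calls each, Nop56 and Dkc1 being added. The count over all genes moved in the same fits. It was 466 with every library, 59 without HFD mouse 6, 1673 without RFD mouse 20 and 1996 without HFD mouse 64. Nhp2 was the steadiest, with an adjusted p between 0.0023 and 0.1004 over the 22 fits, and its call was lost in 1 of them.

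By their numbers in the labels, all but 2 of the 45 mice form 3 series with both diets in each, which served as a check for a batch. The labels do not name these series as batches. RFD mouse 84 of STF and HFD mouse 65 of LTF fall outside them and enter none of the values within a series. They were also left out of every model with the series as a term. For Npm1, the mean difference of log2(CPM + 1) between HFD and RFD was 1.45 among mice 1 to 8, 0.87 among the multiples of 10 and 1.28 among the other numbers from 21 to 64. For Nhp2 these were 1.27, 0.97 and 0.90, for Nop10 0.47, 1.21 and 0.90, for Nop58 1.44, 0.45 and 0.82, and for Ncl 0.99, 0.23 and 1.36. All 5 called members were thus higher on HFD within each series, as were Nop56 and Dkc1, whereas Fbl was at -0.54 in the last. With the series as a term in the model, 7 of the 9 members were called in STF, Nop56 and Dkc1 in addition. That model called 456 of all genes, against 466 in the main test.

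The same mice carried the extremes of several members, and some of them, but not all, were also extreme in cell cycle genes. HFD mouse 64 of STF was the lowest of its group for 6 of the 9 members, the lowest of 11 in the mean level of 25 cell cycle genes and the highest in that of the 28 tuft markers. RFD mouse 20 was the highest of its group for 6 members, including Npm1, Ncl and Nhp2, the highest of 11 in cell cycle genes and the second lowest in tuft markers. HFD mouse 6 was the highest of its group for Nop58, Dkc1, Nop10 and Nhp2 and the highest in cell cycle genes. In LTF, RFD mouse 1, highest for all 9 members, was also the highest of 11 in cell cycle genes and the lowest in tuft markers. HFD mouse 6 of LTF, highest for 8 of 9, was likewise the highest of 12 in cell cycle genes and the lowest in tuft markers. By contrast, RFD mouse 3 of LTF, lowest for 7 of 9 members, was 4th lowest of 11 in cell cycle genes and 2nd lowest in tuft markers. HFD mouse 65 of LTF, lowest for 4 members, was 4th lowest of 12 in cell cycle genes.

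Other gene lists differed between the diets as well. In STF, 25 of the 25 cell cycle genes had a positive log2 fold change (median 1.19) and 3 were called higher: Hmgb2 (1.37), Stmn1 (1.67) and Mcm7 (1.08). Of the 8 stem cell markers, all 8 were positive (median 0.95), and Smoc2 (1.71) and Olfm4 (2.05) were called. Of the 28 tuft markers, 27 were negative with a median of -0.93, 9 had an unadjusted p under 0.05 and 0 an adjusted p under 0.1 (edgeR). All 7 Paneth cell genes were positive (median 2.23) with none called, and the group medians of their summed level were 3101 CPM on RFD and 29730.4 CPM on HFD. With the difference between tuft and other markers of each library in the model, 0 of the 9 members were called in STF and the median log2 fold change of the 9 was 0.55, with unadjusted p under 0.05 for 5. With the mean level of the cell cycle list in the model, 0 members were called and the median was 0.38. In that model 1 member had an unadjusted p under 0.05, Nhp2 with a log2 fold change of 0.59 (SE 0.23, p = 0.0130, edgeR). Calls fell over all genes as well, from 466 in the main test to 23 with the tuft and other markers and 9 with the cell cycle list. Whether the share of dividing or other cells in the sort set the difference in the members was not tested.

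**Figure D3:**
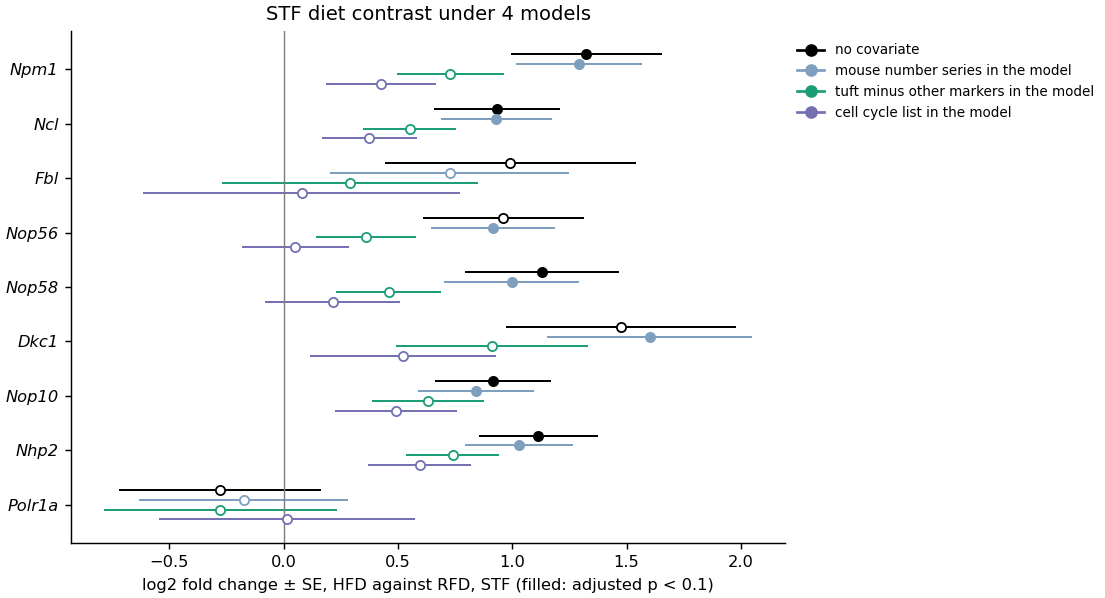
Fitted log2 fold change ± SE of each tested member for HFD against RFD in STF under 4 models. The values with the mouse number series in the model lie near those without it. Those with the tuft and other markers or the cell cycle list lie nearer 0, with no filled symbol (adjusted p under 0.1) in either. Over all genes, the model with the tuft and other markers called 23 and that with the cell cycle list 9, against 466 without a covariate.

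The other genes of the pathway, from lists of RNA polymerase I subunits and factors, snoRNP assembly factors, small and large subunit processing factors and rRNA cleavage and exosome factors, leaned the same way in STF. Of 139 tested genes in these 5 lists, 124 (89.2%) had a positive log2 fold change, against 47.3% of all genes, with a median of 0.70. In all, 6 of the 139 were called higher and none lower by edgeR, where 2% of all genes were called higher and 1.33% lower. An unadjusted p under 0.05 was found for 48 of the 139, beside 18% of all genes (edgeR). Of the 19 genes of the RNA polymerase I list, 3 were called. Polr1b, the second largest subunit, went from a median of 4.52 to 23.2 CPM (log2 fold change 2.14, SE 0.60). Twistnb, a further subunit, went from 11.7 to 33.7 CPM (1.06, SE 0.30). Polr2e, shared by all 3 nuclear polymerases, went from 56.8 to 92.2 CPM (0.69, SE 0.19). Polr1a, which encodes the partner of Polr1b in the catalytic core, was not among them, as given above.

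Of the 11 tested snoRNP assembly genes, Snu13 was called. It encodes the remaining core protein of the box C/D snoRNPs and went from a median of 61.0 to 111 CPM (log2 fold change 0.89 ± 0.25, edgeR adjusted p = 0.073). Of the 51 large subunit factors, 43 were positive and 2 were called, Nop16 (13.6 to 42.7 CPM, log2 fold change 1.26, SE 0.33) and Nmd3, the export adaptor of the large subunit (30.6 to 80.7 CPM, 0.98, SE 0.30). Of the 37 small subunit factors, 36 were positive (median 0.82) and 0 were called. An unadjusted p under 0.05 was found for 13 (edgeR), the smallest for Rcl1 and Emg1. Of these, 12 were higher and 1 was lower, Tsr1 (168 to 92.4 CPM, log2 fold change -0.58, SE 0.24). The 21 cleavage and exosome genes had 19 positive and 0 called, with 7 at an unadjusted p under 0.05 (edgeR). Among the 12 tested snoRNA host genes, 9 were positive (median 0.50) and 0 called, with an unadjusted p under 0.05 for 3 (edgeR). The ribosomal proteins themselves gave the most calls, 43 higher and 0 lower of 79 tested (median 0.72), for example Rps7 (177 to 420 CPM, log2 fold change 1.13, SE 0.24).

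The Myc network list, whose transcription factors act on many nucleolar genes, pools Myc and Mycn with antagonists such as Mxd1 and Mnt. Its signs are therefore not read together. Of 10 tested genes, 4 were positive and 0 called. An unadjusted p under 0.05 was found for 5 (edgeR), 3 of them higher and 2 lower. Myc had a log2 fold change of 1.47 ± 0.46 (SE, edgeR adjusted p = 0.104) and Mycn of 2.95 ± 1.03 (SE, edgeR adjusted p = 0.132). The 4 rows listed for the ribosomal RNA locus, or for a stretch resembling ribosomal RNA, all had negative log2 fold changes, and 2 were called lower. AY036118 had a median of 124351 CPM on RFD and 61988 CPM on HFD (log2 fold change -0.97 ± 0.27, edgeR adjusted p = 0.0754), and Lars2, which holds a stretch resembling ribosomal RNA, had a log2 fold change of -1.82 (SE 0.33). The 4 rows took 12.1% of the reads in the median library on RFD and 4.76% on HFD in STF. Leaving these rows out gave the same 5 member calls. Total RNA was isolated, but Smart-seq2 primes the cDNA on poly(A) tails, and these rows do not measure rates of rRNA synthesis.

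**Figure D4:**
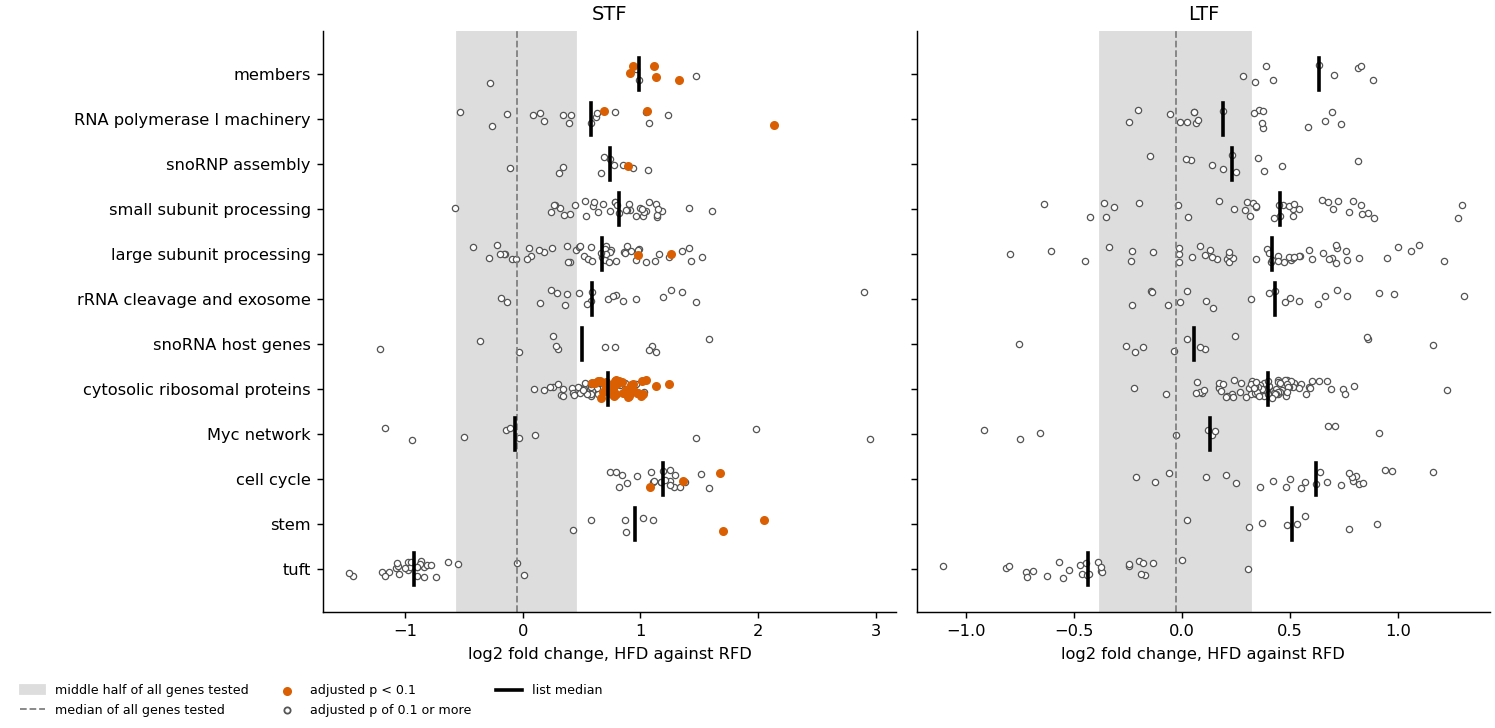
Fitted log2 fold change for HFD against RFD of each tested gene by list, in STF (left) and LTF (right). Orange points have an adjusted p under 0.1, the black bar is the list's median, the grey band holds the interquartile range of all genes tested and the dashed line is their median. In STF the members (median 0.99) lie right of the band like the cell cycle genes (1.19), and the tuft markers (-0.93) lie left of it.

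After 22 weeks no member passed the test. In LTF all 9 tested members had a positive log2 fold change, from 0.28 for Ncl to 0.88 for Dkc1, with a median of 0.63, beside -0.03 over all genes, but 0 were called and 0 had an unadjusted p under 0.05 (edgeR), whereas 0.792% of all genes were called, 0.435% higher and 0.357% lower. The Wald test of DESeq2 also called 0 of the 9, and 351 of all genes. A rank test written after the SAM-seq method called 1 member, Nop10, and 585 of all genes. With edgeR, 10.3% of all genes had an unadjusted p under 0.05. The sign depended on the model for 4 members, as Ncl, Nop56, Nop58 and Polr1a were between -0.12 and -0.05 with the cell cycle list in the model, and Polr1a was just below 0 on the TPM scale. Nhp2 had 0, 24.2 and 92.2 CPM on RFD and 17.3, 41.5 and 142 CPM on HFD. Of 12 mice on HFD, 11 were above the RFD median, and the log2 fold change was 0.83 ± 0.41 (SE, edgeR adjusted p = 0.495). Nop10 had 0, 34.6 and 59.5 CPM on RFD and 30.7, 51.6 and 102 CPM on HFD, with a log2 fold change of 0.63 ± 0.33 (SE, edgeR adjusted p = 0.513). Dkc1 had 0, 9.21 and 91.5 CPM on RFD and 13.7, 30.7 and 81.9 CPM on HFD. All 12 mice on HFD were above the RFD median of Dkc1, and the log2 fold change was 0.88 ± 0.54 (SE, edgeR adjusted p = 0.605). Npm1 had 0, 43.0 and 243 CPM on RFD and 38.4, 91.9 and 223 CPM on HFD (log2 fold change 0.81, SE 0.50). Ncl, at 46.7, 72.3 and 264 CPM on RFD and 55, 108 and 259 CPM on HFD, had the smallest difference.

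The box C/D proteins and Polr1a did not pass the test in LTF either. Nop56 had 0, 30.8 and 131 CPM on RFD and 10.7, 38.9 and 104 CPM on HFD (log2 fold change 0.39, SE 0.46). Nop58 had 1.75, 29.9 and 129 CPM on RFD and 22.04, 45.8 and 100.4 CPM on HFD (0.34, SE 0.37). Fbl had 0, 6.85 and 14.1 CPM on RFD and 1.33, 8.19 and 31.2 CPM on HFD (0.70, SE 0.48). Polr1a had 2.92, 6.14 and 21.8 CPM on RFD and 2.48, 12.4 and 27.4 CPM on HFD (0.42, SE 0.41). The groups overlapped for each of these, although 5 of 12 mice on HFD exceeded every RFD mouse for Fbl. Within the number series, the LTF differences were positive in all 3 for the tested members other than Fbl, Nop58 and Polr1a, each of which was negative among the multiples of 10.

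The LTF calls depended on 1 library. Without RFD mouse 1, Dkc1 (log2 fold change 1.66 ± 0.50, edgeR adjusted p = 0.0755) and Nhp2 (1.22 ± 0.39, edgeR adjusted p = 0.0944) were called, 7 of the 9 members had an unadjusted p under 0.05 and the median log2 fold change was 0.89. That setting also called 667 of all genes, against 111 with the mouse. Without RFD mouse 3, which lacked reads of 6 members, the median was 0.50 and 0 members were called, with an unadjusted p under 0.05 for 1 (edgeR). That fit called 241 of all genes. In LTF, 22 of the 25 cell cycle genes were positive (median 0.62, 0 called, 0 with an unadjusted p under 0.05, edgeR), and 26 of the 28 tuft markers were negative (median -0.43). Of the 139 other pathway genes, 112 were positive (median 0.38), 0 were called and 10 had an unadjusted p under 0.05 (edgeR), and of the 79 ribosomal protein genes 77 were positive with 0 called and 33 at an unadjusted p under 0.05 (edgeR).

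The effect of the diet was not shown to differ between the sets. In the test of the difference itself (interaction of diet and set, 45 libraries), 0 members and 0 of all genes, 0%, had an adjusted p under 0.1 (edgeR), 0 members and 3.22% of all genes had an unadjusted p under 0.05, and DESeq2 called 0 members and 1 of all genes. The difference of the log2 fold changes, LTF minus STF, was negative for 8 of the 9 members, from -0.76 (SE 0.51) for Nop58 to -0.24 (SE 0.41) for Nop10, and 0.74 (SE 0.62) for Polr1a. The median of the 9 differences was -0.49, and it was -0.07 without RFD mouse 1 of LTF and -0.61 without RFD mouse 3.

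The sets were then compared on each diet. On HFD, 4 of the 9 members were lower in LTF than in STF with an adjusted p under 0.1 (edgeR), namely Nop56, Nop58, Npm1 and Ncl, where 5.78% of all genes were called and 2.31% were called lower. The STF mice on HFD are the same here as in the diet comparison, so the calls share those libraries. Nop56 had medians of 160 CPM in STF and 38.9 CPM in LTF, and all 12 LTF mice were below the STF median. Its log2 fold change was -1.76 ± 0.43 (SE, edgeR adjusted p = 0.0135). Nop58 fell from a median of 133 to 45.8 CPM (-1.32 ± 0.35, edgeR adjusted p = 0.0234), again with all 12 below the STF median. Npm1 went from 258 to 91.9 CPM (-1.33 ± 0.44, edgeR adjusted p = 0.0834) and Ncl from 213 to 108 CPM (-0.85 ± 0.28, edgeR adjusted p = 0.0743). Nop10 stayed level in its medians, at 56.2 and 51.6 CPM (-0.02, SE 0.29). Within the number series, the mean differences of log2(CPM + 1) of Nop56 were -0.94, -2.78 and -1.36, those of Nop58 -0.85, -2.58 and -0.33, those of Npm1 -0.86, -2.30 and -0.69, and those of Ncl -0.27, -1.58 and -0.71. Without HFD mouse 80 of STF, Nop56 and Nop58 were still called and Npm1 and Ncl were not, beside 380 of all genes called, against 810 with every library.

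On RFD, 0 of the 9 members were called between the sets (edgeR), where 1.46% of all genes were, and 2 had an unadjusted p under 0.05, beside 10.2% of all genes. DESeq2's Wald test called 1 member, Nop56, and 593 of all genes. Nop56 had medians of 70.7 CPM in STF and 30.8 CPM in LTF (log2 fold change -1.22 ± 0.45, edgeR adjusted p = 0.246). It was called without RFD mouse 1 of LTF, where 1 of the 9 members and 394 of all genes were. Polr1a had medians of 15.6 and 6.14 CPM (-0.93 ± 0.45, edgeR adjusted p = 0.464). On HFD the 25 cell cycle genes were all lower in LTF (median -1.25, 2 called), 27 of the 28 tuft markers were positive (median 0.74, 1 called), and 12 of the 16 enterocyte markers were called higher. With the cell cycle list in the model, 1 member remained called on HFD, Nop56 (adjusted p = 0.0991, edgeR), beside 321 of all genes. With the tuft and other markers in the model it was also 1, Nop56 (adjusted p = 0.0463, edgeR), beside 455 of all genes. The main test called 810 of all genes on HFD.

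Partners of one particle followed each other across mice, where both values of a point come from 1 library and share its depth. Over the 22 mice of STF, Nop56 and Nop58 had Pearson's r of 0.88 and Spearman's rho of 0.92 on log2 CPM (permutation p of rho = 1e-05, the smallest that 100000 permutations can give, adjusted p = 6e-05 over the 18 pairs and sets computed). With the 2 mice at the greatest distance from the Nop56 median left out, r was 0.91. Nop10 and Nhp2 had r of 0.77 and rho of 0.77 in STF (permutation p = 0.00013, adjusted p = 0.000292). Over the 23 mice of LTF they had r of 0.94 and rho of 0.91 (permutation p = 1e-05, adjusted p = 6e-05), and r of 0.85 without the 2 farthest mice. Within the number series, rho of Nop10 and Nhp2 was 0.75, 0.82 and 0.54 in STF and 0.93, 0.54 and 0.95 in LTF, and that of Nop56 and Nop58 was 0.89, 0.68 and 0.75 in STF but 1, -0.20 and 0.90 in LTF, each over 6 to 8 mice. Among the 6 multiples of 10 in LTF, rho was also below 0 for Fbl with Nop56 (-0.49) and for Dkc1 with Nop10 (-0.03). With the mean of each diet subtracted, the same mice gave 0.54 for Nop56 and Nop58, 0.54 for Fbl and Nop56 and -0.09 for Dkc1 and Nop10. In STF the subtraction gave rho of 0.25, -0.04 and 0.61 within the series for Dkc1 and Nop10. No rho within a series was tested.

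Fbl followed its partners less closely in STF, with rho of 0.57 to Nop56 (permutation p = 0.00618, adjusted p = 0.00856) and 0.51 to Nop58 (permutation p = 0.0165, adjusted p = 0.0198). Within the series rho was between 0.11 and 0.46. With each diet's mean subtracted, it was -0.36, 0.11 and 0.61 to Nop56 and 0.036, -0.29 and 0.71 to Nop58. Gar1 had rho between -0.05 and 0.21 with its 3 partners in STF, where none passed an adjusted p under 0.1, and between 0.51 and 0.65 in LTF, where all 3 did. With at most 14 reads per library, Gar1 is too shallow for these values to be read closely. Of the 18 pairs, 15 had an adjusted p under 0.1, and 15 also with each diet's mean subtracted, when rho of Nop56 and Nop58 in STF was 0.88. On the TPM scale 13 passed, and in STF only 1 of the 3 box C/D pairs did. Pairs of genes outside the particles were not computed, so whether the correlations are particular to these pairs was not tested.

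**Figure D5:**
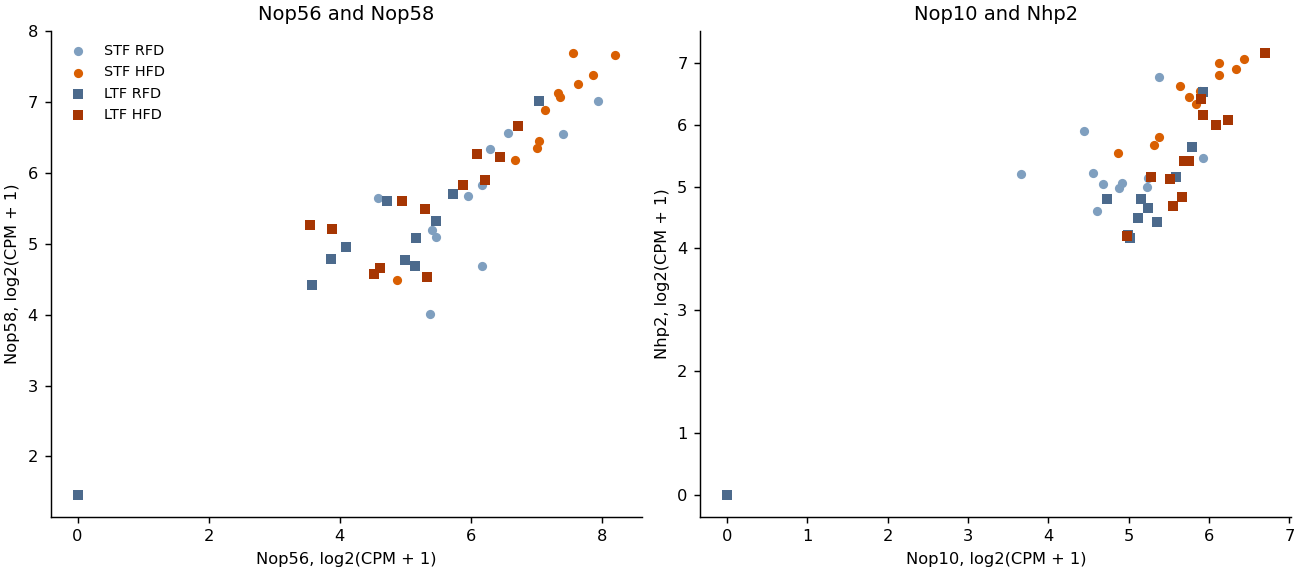
Nop56 against Nop58 (left) and Nop10 against Nhp2 (right), as log2(CPM + 1), with 1 point for each of the 45 mice, circles for STF and squares for LTF. Both pairs lie along a rising line in either set (rho from 0.77 to 0.92), and LTF RFD mouse 3 lies apart at the lower left.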

How the data were processed

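RNA of tuft cells from single mice was amplified by Smart-seq2. Per the submitters' processing notes, the authors trimmed reads with Cutadapt 1.15, aligned them to GRCm38 with STAR 2.6.0 and counted them with RSEM (version not given in the sources used here). The deposited values used are RSEM expected counts, rounded here (8.79% of values above 0 were not whole), and the deposited TPM, which the authors scaled by transcript length and depth. The step in which the authors weighed counts by deconvolved cell composition was left out. In the tables, 24 columns per unit belong to no labelled sample here and were not used.

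Of genes sharing a GENCODE M21 symbol, that with most reads was kept (19 removed). Genes with over 5 reads in 6 or more libraries were tested with edgeR 4.0.16 (TMM, robust quasi-likelihood test, Benjamini-Hochberg adjustment, threshold 0.1), each set fitted alone for the diets, and all 45 libraries together for the interaction and for LTF against STF. SE is the log2 fold change divided by the square root of F. The mice are the replicates. On simulated data the STF test recovered 15 of 100 genes changed by 1 and 66 of 100 changed by 2 on the log2 scale, and the LTF test 26 and 85. Alternatives used limma 3.58.1 on log2(TPM + 1) or log2(TPM + 0.1), DESeq2 1.42.0, a SAM-seq style rank test, covariates and left-out libraries. Correlations were tested with 100000 two-sided permutations.

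The members and lists were chosen with earlier results of these data known. All 10 members are named, and of other lists at most 3 called genes per direction by p, or the 2 with the smallest p where none passed.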

Additional observations from a re-analysis of the deposited data

How the results depend on the processing

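The count of members called in STF (5) was 3 with DESeq2 size factors, 2 without the libraries under 500000 reads, and 0 with limma on either TPM scale and with the tuft or the cell cycle covariate, and 7 with DESeq2, the number series or the SAM-seq style test. Leaving out 1 library at a time, an alternative chosen after seeing the data, gave 0 to 7 members and 59 to 1996 genes in STF, and 0 to 2 members and 58 to 667 genes in LTF. Among all genes in STF (466 called), there were 1534 with DESeq2, 1504 with no filter, 9 and 5 with limma (pseudocounts 1 and 0.1), 23 with the tuft covariate, 9 with the cell cycle covariate, 290 without the shallow libraries and 2007 with the SAM-seq style test. In LTF (111 called) there were 351 with DESeq2, 429 with no filter, 51 and 31 with limma, 185 with the number series, 168 with the tuft covariate, 54 with the cell cycle covariate and 585 with the SAM-seq style test, which called 1 member. For the interaction (0 called), DESeq2 gave 1 gene and no filter 65. The causes were not tested.

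For LTF against STF on RFD (0 members, 204 genes), DESeq2, the number series and the tuft covariate each called 1 member, Nop56, and there were 593 genes with DESeq2, 914 with no filter, 436 with the number series, 478 with the tuft covariate and 311 with the cell cycle covariate. On HFD (4 members, 810 genes), there were 2 members with no filter, 1 and 0 with limma, and 1 with either covariate, and there were 1551 genes with DESeq2, 1554 with limma (pseudocount 1), 1255 with the number series, 455 with the tuft covariate and 321 with the cell cycle covariate. Leaving out RFD mouse 1 or 3 of LTF or HFD mouse 80 of STF gave 0 to 1 members and 166 to 394 genes on RFD, and 2 to 5 members and 380 to 1263 genes on HFD. DESeq2 size factors moved the share of called genes that were higher in LTF from 67.2% to 56.5% on RFD and from 60.0% to 43.9% on HFD, and the limma settings moved the median of all genes on HFD to 0.33 and 0.56.

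The same mouse numbers occur in both sets but belong to different mice. With the number as a replicate block, 0 members and 3 genes were called on RFD. On HFD that setting called 4 members (Npm1, Nop56, Nop58 and Dkc1) and 709 genes. Same-numbered libraries correlated between -0.38 and 0.38 on HFD and between -0.29 and 0.066 on RFD, and 1 of 7 and 0 of 9 matched their own number best, so the numbers were not taken as pairs. The diets share no numbers within a set.

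Signs turned for small differences. In STF, Polr1a was 0.016 with the cell cycle covariate. In LTF, that covariate gave -0.12 for Ncl, -0.10 for Nop56, -0.050 for Nop58 and -0.067 for Polr1a, and limma gave -0.0036 and -0.014 for Polr1a. For LTF against STF on RFD, Ncl was 0.069 and 0.071 with limma, 0.17 with the cell cycle covariate and 0.087 with the block, Fbl was 0.066 and 0.094 with limma and 0.047 with the cell cycle covariate, and Nop10 was -0.0091 with limma (pseudocount 0.1). On HFD, Fbl was 0.083 and 0.17 with limma, 0.084 with the tuft and 0.19 with the cell cycle covariate. Nop10 was 0.0032 with no filter, 0.47 and 0.48 with limma, 0.049 with the number series, 0.24 with the tuft and 0.35 with the cell cycle covariate. Polr1a was 0.0052 with the tuft and 0.071 with the cell cycle covariate. Depth limits Gar1 and Fbl most, and with a biological coefficient of variation of 0.794 in STF and 0.702 in LTF, differences under a log2 fold change of 1 are often missed at this number of mice.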
